A study of Mus musculus with 12 samples.

Results

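Restimulation through CD3 was examined in CD8 T cells that carried no perturbation beyond a control guide. The cells came from mice homozygous for both the OT-I T cell receptor (TCR) transgene, which gives nearly every CD8 T cell a receptor for a peptide of ovalbumin, and a Cas9 transgene. They had been stimulated once on antibodies to CD3 and CD28, transduced with a retrovirus for a control guide, selected in puromycin (4 µg/mL) and kept in medium with β-mercaptoethanol (50 µM), IL-2 (10 ng/mL), IL-7 (0.5 ng/mL) and IL-15 (1 ng/mL). Resting cells were therefore effector cells that had not been restimulated, and activated cells were put on plate-bound anti-CD3 (2.5 µg/mL) for 24 h. Both groups received water as vehicle, and each had 2 libraries of polyadenylated RNA. The labels do not say whether the 2 libraries of a group came from separate cultures or mice, so the p-values may measure technical spread alone. All 13167 genes that passed an expression filter were compared, of 46603 identifiers in the table.

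In the wider series of 12 libraries, the same resting and activated states were also sampled in control-guide cells given AGN192403 (100 µM), a ligand of imidazoline receptors, and in cells with guides against Tmed10. Total counts in the libraries compared here were 10055726 and 13274398 at rest and 12156158 and 12228283 after activation, with 17495 to 17782 genes detected and 1.27% to 1.39% of counts from the mitochondrial genome. Library 1 of each group held more of some nuclear RNAs. Malat1, a nuclear noncoding RNA, stood at 2594 and 1540.5 CPM (counts scaled to library size) at rest and 1630.5 and 989 CPM after activation. All 10 CD8 T cell markers passed the filter. In bulk RNA, fewer cells of a type and less RNA per cell cannot be told apart. Cd4 was at most 0.80 CPM in any library, and the defining B cell genes Cd79a and Ms4a1 and the myeloid genes Lyz2 and Csf1r did not pass the filter. Cd79b, for the partner of CD79A in the B cell receptor, did pass, at 5.99 and 6.96 CPM at rest and 1.67 and 1.43 CPM after activation. The summed CPM of the 5 CD4 T cell markers was 98.1 and 92.5 at rest and 60.0 and 55.2 after activation. Most of it came from Zbtb7b and Gata3, which fell, while Cd40lg rose from 0.899 and 0.681 to 8.91 and 7.22 CPM. For the 11 B cell markers, the sums were 138 and 144 at rest and 31.9 and 35.3 after activation, mostly from Ighm. Ebf1, the remaining B cell marker that passed the filter, rose from 0.0999 and 0.151 to 2.25 and 2.10 CPM. The 16 myeloid markers summed to 66.9 and 71.2 at rest and to 101 and 108 after activation, mostly from Cst3 and Cd74. The other 3 myeloid markers that passed the filter fell, Cd68 from 14.4 and 17.2 to 3.83 and 4.03 CPM, Itgax from 1.898 and 1.51 to 0.4999 and 0.336 CPM and Itgam from 1.798 and 1.59 CPM to 0 counts. The NK cell markers, mostly Gzma, summed to 2067 and 2124 at rest and 1707 and 1751 after activation, with Ncr1 and Klrb1c not passing the filter. Erythroid and stromal markers summed to at most 3.69 and 7.09 CPM. The part of these sums in the results was not tested.

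T cells read antigen through the TCR, whose CD3 chains pass the signal to the kinases LCK and ZAP70 and from there to calcium and NFAT, to RAS and AP-1, and to NF-kB. Effector CD8 T cells that meet antigen again secrete interferon gamma and chemokines, release granzymes, and switch on both costimulatory and inhibitory receptors, among them PD-1. Cells that see no antigen but receive IL-2, IL-7 and IL-15 stay alive and keep dividing on these growth factors.

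Short DNA motifs of known factors were sought on both strands of RefSeq promoters (GRCm38.p6, 250 bases before to 50 bases after each start), which matched 9502 of the tested genes. For 8 motifs, the share of promoters with a match was taken in each of 55 gene lists and over all of them. For the 3 lists with the largest excess, the 2 members with the largest change that held the motif are printed, since they show the letters that the counts rest on, 5′ to 3′ on the gene's strand. The first motif, GAAANNGAA, is the core of the element bound by interferon-activated factors. Capitals mark its matches in the promoters of Ifit1bl1 (chr19:34601919-34602218, minus strand) and Ifi208 (chr1:173673415-173673714, plus strand), both interferon-inducible genes that fell after activation.
Ifit1bl1: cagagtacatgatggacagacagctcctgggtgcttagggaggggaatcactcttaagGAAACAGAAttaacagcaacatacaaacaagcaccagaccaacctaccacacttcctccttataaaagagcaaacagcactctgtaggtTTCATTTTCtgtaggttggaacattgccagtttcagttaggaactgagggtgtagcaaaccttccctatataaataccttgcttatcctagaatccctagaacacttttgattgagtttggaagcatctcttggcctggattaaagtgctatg
Ifi208: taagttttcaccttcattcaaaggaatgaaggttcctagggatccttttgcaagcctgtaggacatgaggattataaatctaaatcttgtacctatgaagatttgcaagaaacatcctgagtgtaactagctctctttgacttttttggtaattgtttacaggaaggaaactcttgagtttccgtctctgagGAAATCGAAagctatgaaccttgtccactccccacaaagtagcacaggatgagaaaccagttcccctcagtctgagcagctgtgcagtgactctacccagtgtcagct

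The second motif, TTTGAA, is the cell cycle homology region of genes transcribed in G2 and M phase. It is in capitals in the promoters of Ccnb2 (chr9:70421505-70421804, minus strand), which encodes a mitotic cyclin, and Cenpn (chr8:116921490-116921789, plus strand), which encodes a centromere protein. Both genes fell.
Ccnb2: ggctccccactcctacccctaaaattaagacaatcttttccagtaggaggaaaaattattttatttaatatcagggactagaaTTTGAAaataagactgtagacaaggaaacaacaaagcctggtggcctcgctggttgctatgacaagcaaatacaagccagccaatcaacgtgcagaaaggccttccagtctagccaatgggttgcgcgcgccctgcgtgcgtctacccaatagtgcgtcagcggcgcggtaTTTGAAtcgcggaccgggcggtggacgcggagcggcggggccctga
Cenpn: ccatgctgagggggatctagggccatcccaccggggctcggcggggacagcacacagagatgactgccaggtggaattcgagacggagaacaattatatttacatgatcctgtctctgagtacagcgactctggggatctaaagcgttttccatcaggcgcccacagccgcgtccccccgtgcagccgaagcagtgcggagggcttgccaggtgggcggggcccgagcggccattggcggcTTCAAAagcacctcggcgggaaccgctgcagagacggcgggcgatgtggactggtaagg

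The third motif, TGATGNAA, is the composite site of ATF4, a factor of the amino acid response. Capitals mark it in the promoters of the isoleucine and tyrosine tRNA synthetase genes Iars (chr13:49681880-49682179, plus strand) and Yars (chr4:129189653-129189952, plus strand), both of which rose.
Iars: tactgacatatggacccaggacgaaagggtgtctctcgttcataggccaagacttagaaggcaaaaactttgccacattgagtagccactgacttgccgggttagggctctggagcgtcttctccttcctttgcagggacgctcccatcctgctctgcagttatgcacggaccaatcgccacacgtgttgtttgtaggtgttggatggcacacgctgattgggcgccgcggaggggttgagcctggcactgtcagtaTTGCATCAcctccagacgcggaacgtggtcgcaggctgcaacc
Yars: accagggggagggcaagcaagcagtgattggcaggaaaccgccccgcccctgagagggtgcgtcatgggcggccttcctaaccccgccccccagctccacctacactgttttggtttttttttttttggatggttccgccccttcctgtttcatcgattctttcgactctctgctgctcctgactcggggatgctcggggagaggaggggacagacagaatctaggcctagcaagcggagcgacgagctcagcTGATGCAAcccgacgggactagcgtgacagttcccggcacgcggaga

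The interferon motif was in 32 of 47 promoters of interferon-stimulated genes (68.09%), beside 8.567% of all 9502 promoters. The G2 and M phase motif was in 40 of 64 promoters of its list (62.50%), beside 14.31% of all. The interferon motif was also in 3 of 7 promoters of chemokine ligand genes (42.86%), a list whose called members rose, Ccl1 and Ccl3 among them. The G2 and M phase motif was in 17 of 47 promoters of interferon-stimulated genes (36.17%). For the ATF4 motif the counts were 5 of 12 tRNA synthetase promoters (41.67%), beside 2.747% of all. Over all genes that changed by clearly more than 2-fold, the interferon motif was in 12.27% of promoters of those that fell and in 7.945% of those that rose. The other motifs searched were TGANTCA (AP-1), TTTGGCGC (E2F), TCACNCCAC (sterol element), TGACGTGG (XBP1) and CACGTG (E-box). Of these, TGANTCA was in 6 of 18 costimulator promoters (33.33%, beside 6.009% of all) and TTTGGCGC in 7 of 47 S phase promoters (14.89%, beside 1.126%). A match is a description of letters, and binding was not measured.

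Activation moved most of the transcriptome. A gene was called at an adjusted p under 0.05 in edgeR, and 9714 genes or 73.8% were called, 36.4% of all genes tested as higher and 37.4% as lower. A stricter test against a 2-fold change, here "beyond 2-fold", called 1067 genes higher (8.1%) and 1408 lower (10.7%), or 1650 in all and 926 lower with DESeq2. For each gene list below, the percentages in brackets are the shares of tested members called higher and lower, to be read beside 36.4% and 37.4% over all genes. Of the called genes, 3733 changed by less than 1.5-fold. The called share rose with level, from 43.3% of genes under 1 CPM to 91.7% of the 72 genes over 1000 CPM, while the median standard error (SE) of the log2 fold change fell from 0.593 to 0.0381. Estimated changes were skewed towards few strong rises and many moderate falls. With genes at 0 counts set to their lower bound, 468 called genes were at least 4-fold higher and 743 were at least 4-fold lower, while 85 were at least 32-fold higher and 35 were at least 32-fold lower.

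Counts were also redistributed. Genes beyond 2-fold higher took 4.25% and 4.28% of the resting libraries and 13.2% and 13.3% of the activated libraries. Genes beyond 2-fold lower went from 13.8% and 13.8% to 4.47% and 4.45%. These shares describe genes chosen by the same comparison. Gzmb, which encodes the killing protease granzyme B, took 0.939% and 0.978% of the resting and 1.93% and 1.99% of the activated libraries. Per kb of exon it was the most abundant transcript in both states, at 6705 and 13930 CPM per kb. This ranking left out genes of the mitochondrial genome and genes without an annotated exon length. Ifng, for interferon gamma, moved from 6.29 CPM per kb at rest to 3522 after activation and became the second most abundant by that measure. Xcl1, for a chemokine that draws in dendritic cells, was the fifth at 2012 CPM per kb, from 3.94 at rest.

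**Figure D1:**
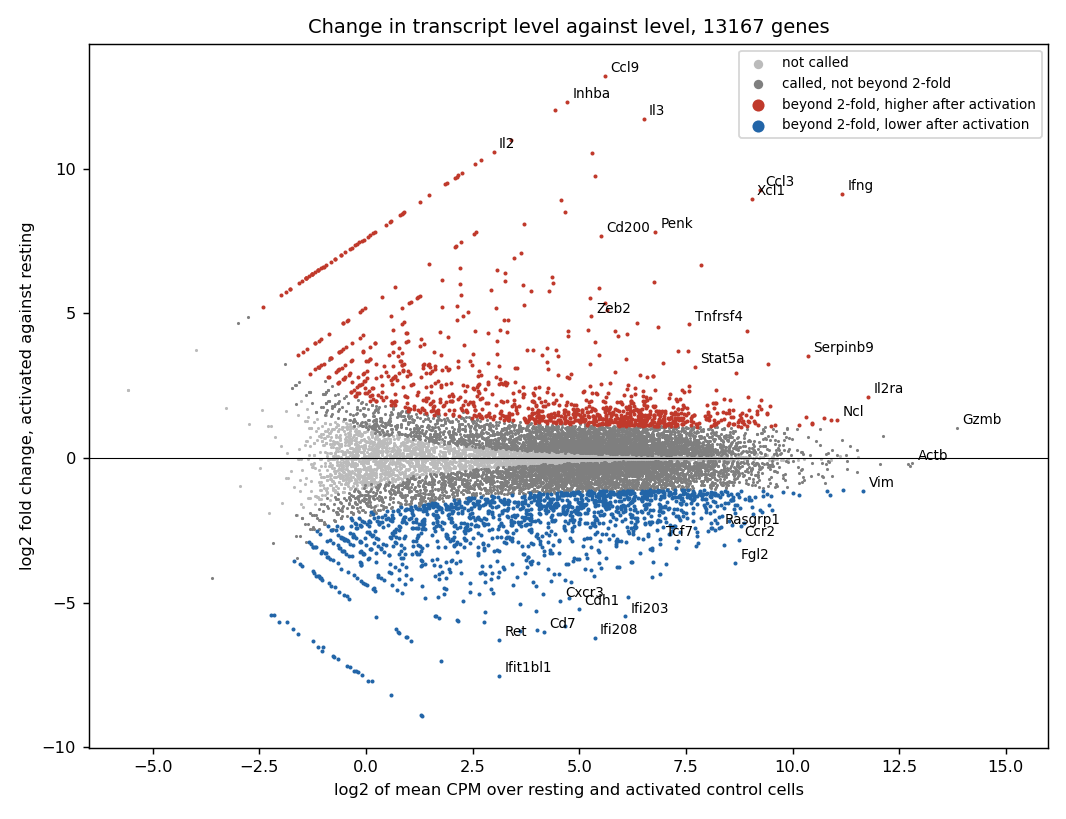
Each point is 1 of the 13167 genes tested, with the log2 of its mean CPM over the 4 control libraries on the x axis and its log2 fold change, activated against resting, on the y axis. Rises reach further from 0 than falls, and 1067 red points (higher) and 1408 blue points (lower) are beyond 2-fold.

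Of 35 cytokine genes tested, out of 41 in the list, 30 rose and 5 fell (85.7% higher, 14.3% lower). The filter kept 13 of these rises through the activated libraries alone. In each of the 13, both activated but not both resting libraries reached the filter level of 0.82 CPM, so the selection favoured a rise. Over all genes tested, 408 of 516 such genes were called higher. Of the 20 cytokine genes over that level in both states, 15 rose and 5 fell, and 2 more were over it in neither. The median log2 fold change over the 35 was 3.66, beside −0.018 over all genes tested, and rests in part on those 13 genes. Ifng stood at 8.79 and 7.49 CPM at rest and 4456 and 4664 CPM after activation (log2 fold change 9.14 ± 0.0678, adjusted p = 6.19e-32). Here and below, a value with ± in brackets is a log2 fold change with its SE. The libraries of a group lay close together, and no resting library came near an activated one. Its neighbour Il22, for a cytokine that acts on epithelia, had 0 counts at rest and 43.5 and 42.9 CPM after activation, at least 334-fold. Both genes lie within 241.0 kb on chromosome 10 (118204942 to 118445892), with no other tested gene between them.

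Several growth factor genes were silent or nearly silent at rest. Il3, for a growth factor of blood progenitors, had 1 resting count and 179 and 186 CPM after activation, a ratio of 4231 with a 95% counting interval of 759 to 167200. Il2, for the T cell growth factor itself, was at 0 in both resting libraries and reached 15.7 and 16.03 CPM, at least 123-fold. Csf2, which encodes GM-CSF, went from 4.696 and 4.92 to 72.4 and 82.9 CPM (4.01 ± 0.102). Lif and Osm, for 2 cytokines of the IL-6 family, were already on at rest. Lif rose from 176 and 178 to 521 and 524 CPM (1.56 ± 0.0404) and Osm from 69.4 and 70.1 to 124 and 129.7 CPM (0.86 ± 0.0529).

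Il13 and Il5 encode type 2 cytokines. Il13 stood at 1.099 and 1.74 CPM at rest and 84.7 and 89.2 CPM after activation (5.88 ± 0.132), and Il5 at 0.3996 and 0.0757 and then 2.17 and 3.52 CPM (3.66 ± 0.556). Il4, the other type 2 cytokine gene there, was low throughout and fell from 1.399 and 2.57 to 0.9998 and 1.09 CPM (−0.97 ± 0.368). These genes share a stretch of 664.3 kb on chromosome 11 (53602982 to 54267277) with Csf2 and Il3. That stretch held 11 tested genes, of which 6 rose and 5 fell. Irf1, for an interferon response factor and the next tested gene after Il5, fell from 243 and 229 to 38.5 and 37.8 CPM (−2.63 ± 0.0596). Il10, for an anti-inflammatory cytokine, rose from 63.7 and 62.3 to 314 and 318 CPM (2.33 ± 0.0491), and its relative Il24 from 45.3 and 43.3 to 933 and 930.4 CPM (4.40 ± 0.0542).

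Several products less often named in CD8 T cells appeared too. Inhba, which encodes an activin subunit of the TGF-beta family, had 0 resting counts and 50.4 and 54.3 CPM after activation, at least 405-fold. Penk, the gene of the opioid precursor proenkephalin, went from 0.799 and 1.06 to 211 and 224 CPM (7.83 ± 0.105), with no overlap between the groups. Il23a, for the p19 subunit of IL-23, had 3 resting counts and 50.2 and 51.9 CPM after activation, a ratio of 395 with a 95% counting interval of 135 to 1919. Il21, for a cytokine of helper T cells, had 1 resting count and 8.91 and 8.31 CPM after activation, a ratio of 200 (35.5 to 7938).

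Some cytokines changed little or fell. Tnf, for tumour necrosis factor, stood at 69.7 and 74.0 CPM at rest and 101 and 109 CPM after activation, and Lta, its neighbour in the family, at 145 and 153 and 242 and 237 CPM. Both rises were called (0.54 ± 0.0566 and 0.68 ± 0.0453) without being beyond 2-fold. Ltb, for the membrane partner of lymphotoxin alpha, fell from 243 and 238 to 36.1 and 41.2 CPM (−2.64 ± 0.0547). Il16, for a chemoattractant precursor, fell from 244 and 242 to 44.7 and 47.4 CPM (−2.40 ± 0.0489). Tgfb3 fell by 1.65 and Csf1, for the macrophage growth factor M-CSF, by 1.44 on the log2 scale.

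Of 27 chemokine genes in the list, 10 were tested, of which 9 rose, all beyond 2-fold, and none fell (90% higher, 0% lower). The filter kept 4 of these 9 through the activated libraries alone, so the selection favoured their rise. Of the 5 genes over its level in both states 4 rose, and 1 gene was over it in neither. Ccl25 was not called, at 2.198 and 2.95 and then 2.999 and 2.85 CPM. The median log2 fold change over the 10 was 7.16, or 5.40 with undetected members at their bounds. Their sum went from 24.1 and 25.04 CPM at rest to 2943 and 3132 CPM after activation. Ccl3 and Ccl4 encode macrophage inflammatory proteins. Ccl3 moved from 1.898 and 1.97 to 1168 and 1254 CPM (9.28 ± 0.0982) and Ccl4 from 4.196 and 4.69 to 445 and 478 CPM (6.68 ± 0.0889). Xcl1 went from 1.698 and 2.42 to 1028 and 1076 CPM (8.96 ± 0.0949). Ccl5, for the chemokine RANTES, had the highest resting level of the list, at 12.7 and 10.9 CPM, and reached 116 and 136 CPM (3.43 ± 0.0956).

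Some of these genes are neighbours. Ccl5, Ccl9, Ccl3 and Ccl4 lie within 138.9 kb on chromosome 11 (83525778 to 83664683), a stretch chosen after the values were seen, and the 4 genes tested there all rose. Ccl9 had 0 counts in both resting libraries and 95.5 and 99.7 CPM in the activated ones, at least 755-fold. Ccl1, for a ligand of CCR8, had 1 resting count and 80.1 and 77.9 CPM after activation, a ratio of 1835 (329 to 72520). The remaining 17 chemokine genes of the list did not pass the filter.

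**Figure D2:**
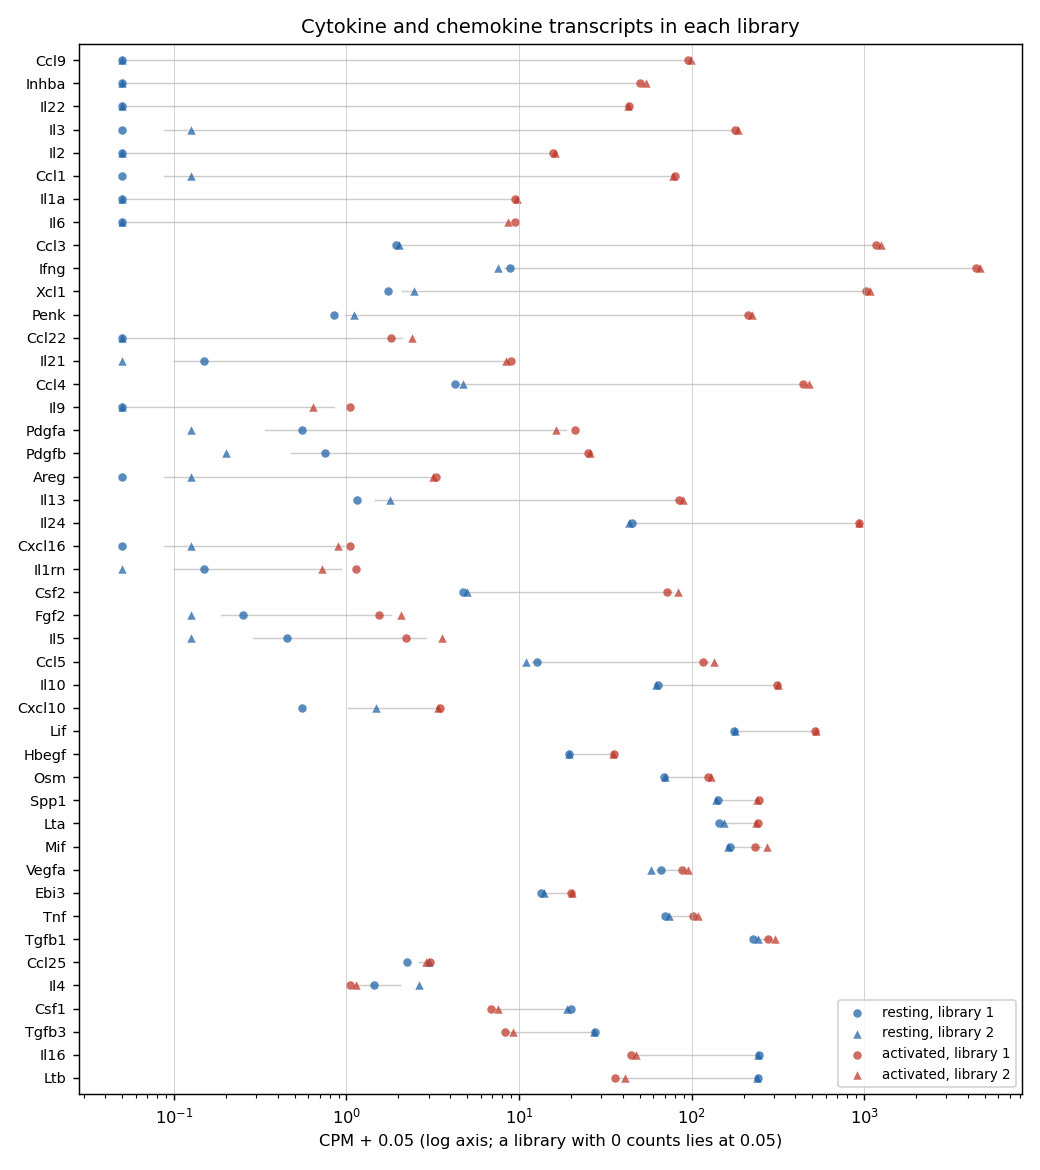
Level of each tested cytokine and chemokine gene, listed down the y axis, in the 4 control libraries, as CPM plus 0.05 on a log axis, with resting libraries in blue, activated in red and a grey line between the group means. Genes run from the largest rise at the top to the largest fall at the bottom, where Ltb went from 243 and 238 to 36.1 and 41.2 CPM.

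TNF family ligands gave 9 rises and 4 falls among 14 tested (64.3% higher, 28.6% lower). Of the 10 over the filter level in both states, 6 rose and 3 fell. Tnfsf11, for the bone-resorption factor RANKL, rose from 39.2 and 42.5 to 128 and 135 CPM (1.68 ± 0.0599). Tnfsf4, for the OX40 ligand, rose from 30.4 and 30.7 to 73.1 and 76.6 CPM (1.29 ± 0.0619), and Tnfsf14, for LIGHT, from 7.99 and 8.55 to 28.9 and 31.4 CPM (1.86 ± 0.09997). Cd70, for the ligand of CD27, had 0 resting counts and 3.92 and 3.52 CPM after activation, at least 28.8-fold. Its receptor gene Cd27 fell from 80.4 and 82.3 to 49.9 and 50.3 CPM (−0.70 ± 0.0544). Fasl, for the death ligand of the killing machinery, fell slightly, from 84.8 and 83.2 to 72.1 and 74.2 CPM (−0.20 ± 0.04997).

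Of 14 genes of the TCR complex and its coreceptors, 9 fell and 2 rose (14.3% higher, 64.3% lower). Cd3e stood at 578 and 589 CPM at rest and 237 and 259.6 CPM after activation (−1.23 ± 0.0452), and Cd3g at 552 and 571 and 217 and 226 CPM (−1.34 ± 0.0439). The constant region genes of the TCR chains, Trac and Trbc2, fell by 0.81 and 1.23 on the log2 scale, and Trbc1, Cd3d and Cd247 by 0.41, 0.85 and 0.26. Cd8a rose by a small amount, from 634 and 632 to 673 and 691 CPM (0.11 ± 0.0403), a call that was lost in 3 of the 4 fits without 1 control library (adjusted p = 0.0635, 0.0827 and 0.0641 in edgeR), and Cd8b1, Cd2 and Cd5 were not called. Cd6, for a negative regulator of TCR signals, was the only member to rise beyond 2-fold, from 61.6 and 64.99 to 174 and 176 CPM (1.46 ± 0.0472).

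In the list of proximal TCR signalling, 32 of 40 genes were lower and 4 higher (10% higher, 80% lower), with a median of −0.75. The kinase genes Lck and Zap70 fell from 862 and 865 to 516 and 529.8 CPM (−0.72 ± 0.03997) and from 243 and 248 to 114 and 119 CPM (−1.07 ± 0.0436). Rasgrp1, for the exchange factor that turns on RAS in T cells, fell from 526 and 520.5 to 98.4 and 98.7 CPM (−2.41 ± 0.0438). Prkcq, for a protein kinase C of the TCR pathway, fell by 1.56 on the log2 scale. Lax1, for an inhibitory adaptor, dropped from 127 and 117 to 16.3 and 15.8 CPM (−2.92 ± 0.0674), and Dgka, for a kinase that removes diacylglycerol, from 554 and 517 to 178 and 186 CPM (−1.56 ± 0.0428). Cblb, for an inhibitory ubiquitin ligase, rose by 0.17. Lat was not called, at 347 and 359 and then 336 and 352 CPM.

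The calcium and NFAT list had 20 of 28 genes lower and 7 higher (25% higher, 71.4% lower). All 3 tested NFAT genes that calcineurin acts on fell. Nfatc1 went from 239 and 249 to 101 and 105 CPM (−1.25 ± 0.0495), Nfatc2 fell by 1.23 and Nfatc3 by 1.20 on the log2 scale. The calcium pumps of the ER went opposite ways. Atp2a2, for the widely expressed pump SERCA2, rose from 232 and 231 to 641 and 642 CPM (1.47 ± 0.0403), whereas Atp2a3, for SERCA3, fell from 470.2 and 462 to 83.1 and 90.03 CPM (−2.43 ± 0.0458). Of the IP3 receptor genes, Itpr1 rose (1.45 ± 0.0509), while Itpr2 (−1.61 ± 0.0799) and Itpr3 (−1.58 ± 0.04804) fell.

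Brakes on RAS and MAP kinases were mixed, with 10 of 21 higher and 7 lower (47.6% higher, 33.3% lower). Dusp4, for a nuclear MAP kinase phosphatase, rose from 36.97 and 34.9 to 149 and 159 CPM (2.11 ± 0.0598), while Dusp6, for its cytoplasmic ERK counterpart, fell from 228 and 238 to 58.7 and 65.4 CPM (−1.91 ± 0.0533). Spry1, for a Sprouty inhibitor, went from 0.4995 and 0.378 to 15.8 and 16.6 CPM (5.20 ± 0.252). Rasa3, for a RAS and RAP1 inhibitor, fell from 273 and 275 to 30.3 and 33.7 CPM (−3.10 ± 0.0622). The genes of the G protein regulators Rgs16, Rgs2 and Rgs1 rose by 2.85, 3.82 and 1.53 on the log2 scale.

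EGR and NR4A factors are switched on by NFAT and ERK. Their list also held Nab1, Nab2, Ier2, Ier3, Ier5, Srf, Crem and Atf3. Of its 14 tested genes, 10 rose and 3 fell (71.4% higher, 21.4% lower). Nr4a1, often used as a reporter of TCR signals, rose from 2.997 and 2.65 to 96.3 and 97.5 CPM (5.11 ± 0.106), and Nr4a2 and Nr4a3 by 4.38 and 3.69. Egr2 and Egr3, which are linked to T cell tolerance, rose from 4.396 and 3.78 to 31.1 and 37.8 CPM (3.08 ± 0.132) and from 2.298 and 1.97 to 28.3 and 28.2 CPM (3.74 ± 0.139). Egr1 went the other way, from 373 and 372 to 58.7 and 66.9 CPM (−2.57 ± 0.0502), and Ier2 fell by 1.01. Both falls were smaller in the other conditions of the series. With AGN192403 the log2 fold changes were −0.94 for Egr1 and −0.23 for Ier2, and with guides against Tmed10 they were −0.15 and −0.29. Nab2, for a corepressor of EGR factors, rose by 0.79, and Nab1 was not called.

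AP-1, BATF and IRF genes gave 13 rises and 9 falls of 23 (56.5% higher, 39.1% lower). Batf3 rose from 6.69 and 5.67 to 109 and 120.2 CPM (4.23 ± 0.0918), and Batf by 0.85. Irf4, for the factor that scales with TCR strength, rose from 244 and 246 to 985 and 993 CPM (2.01 ± 0.0382), and Irf8 from 126 and 131 to 386 and 388 CPM (1.59 ± 0.0411). Jun and Fos themselves fell by 0.69 and 0.89 on the log2 scale, while Junb, Fosl1 and Fosl2 rose. With AGN192403 the log2 fold changes were −0.10 for Jun and 0.18 for Fos, and with guides against Tmed10 they were −0.52 and 0.18. Junb, Fosl1 and Fosl2 were called higher there too. Maf, for a factor of Il4 and Il10 transcription, fell from 97.8 and 92.5 to 15.7 and 14.01 CPM (−2.68 ± 0.0759).

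In the NF-kB list, 20 of 25 rose and 4 fell (80% higher, 16% lower). Both activating subunits and inhibitors were among the rises. Nfkb2 went from 94.01 and 99.6 to 485 and 506 CPM (2.35 ± 0.0463) and Rel from 48.7 and 49.4 to 234 and 225 CPM (2.23 ± 0.0548). Nfkbia, for IkB alpha, rose from 26.1 and 24.2 to 126 and 139.5 CPM (2.41 ± 0.0645), and Tnfaip3, for the inhibitor A20, by 1.98. Rela was not called, at 118 and 119.8 and then 115 and 119 CPM. The falls were Cyld, Ikbkb, Ikbke and Ikbkg, by 0.83, 0.55, 0.93 and 0.24 on the log2 scale.

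Factors of effector and exhausted cells split evenly, with 13 of 27 higher and 13 lower (48.1% higher, 48.1% lower). Zeb2, a factor of terminal effector cells, rose from 2.598 and 2.42 to 74.9 and 75.3 CPM (4.91 ± 0.112). Tbx21, for T-bet, rose by 0.29, and Prdm1, for BLIMP-1, by 0.56, both short of 2-fold. Eomes fell from 162 and 173 to 81.9 and 82.3 CPM (−1.03 ± 0.0516). Tox, a factor of exhausted cells, was low at 6.39 and 5.75 CPM at rest and fell to 0.0833 and 0.168 CPM, a ratio of 48.1 with a 95% counting interval of 16.1 to 236. Myc, which drives growth, rose from 211 and 228 to 499.6 and 524 CPM (1.22 ± 0.0433).

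Memory and stemness genes were lower in 17 of 25 cases and higher in 5 (20% higher, 68% lower). Of the 23 over the filter level in both states, 15 fell and 5 rose. Tcf7, for the memory factor TCF-1, went from 207 and 209.8 to 28.8 and 30.6 CPM (−2.81 ± 0.0591). Id3 fell from 30.7 and 27.2 to 1.58 and 1.34 CPM (−4.29 ± 0.154) and Klf2, which sustains S1pr1, from 13.6 and 15.4 to 0.916 and 0.671 CPM (−4.18 ± 0.217). S1pr1 fell by 1.03, while Il7r was not called. The rises were Myb, Satb1, Zeb1, Slfn2 and Ccr7. Ccr7, for the receptor that brings T cells to lymph nodes, rose from 121 and 119 to 439 and 448 CPM (1.89 ± 0.0443).

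**Figure D3:**
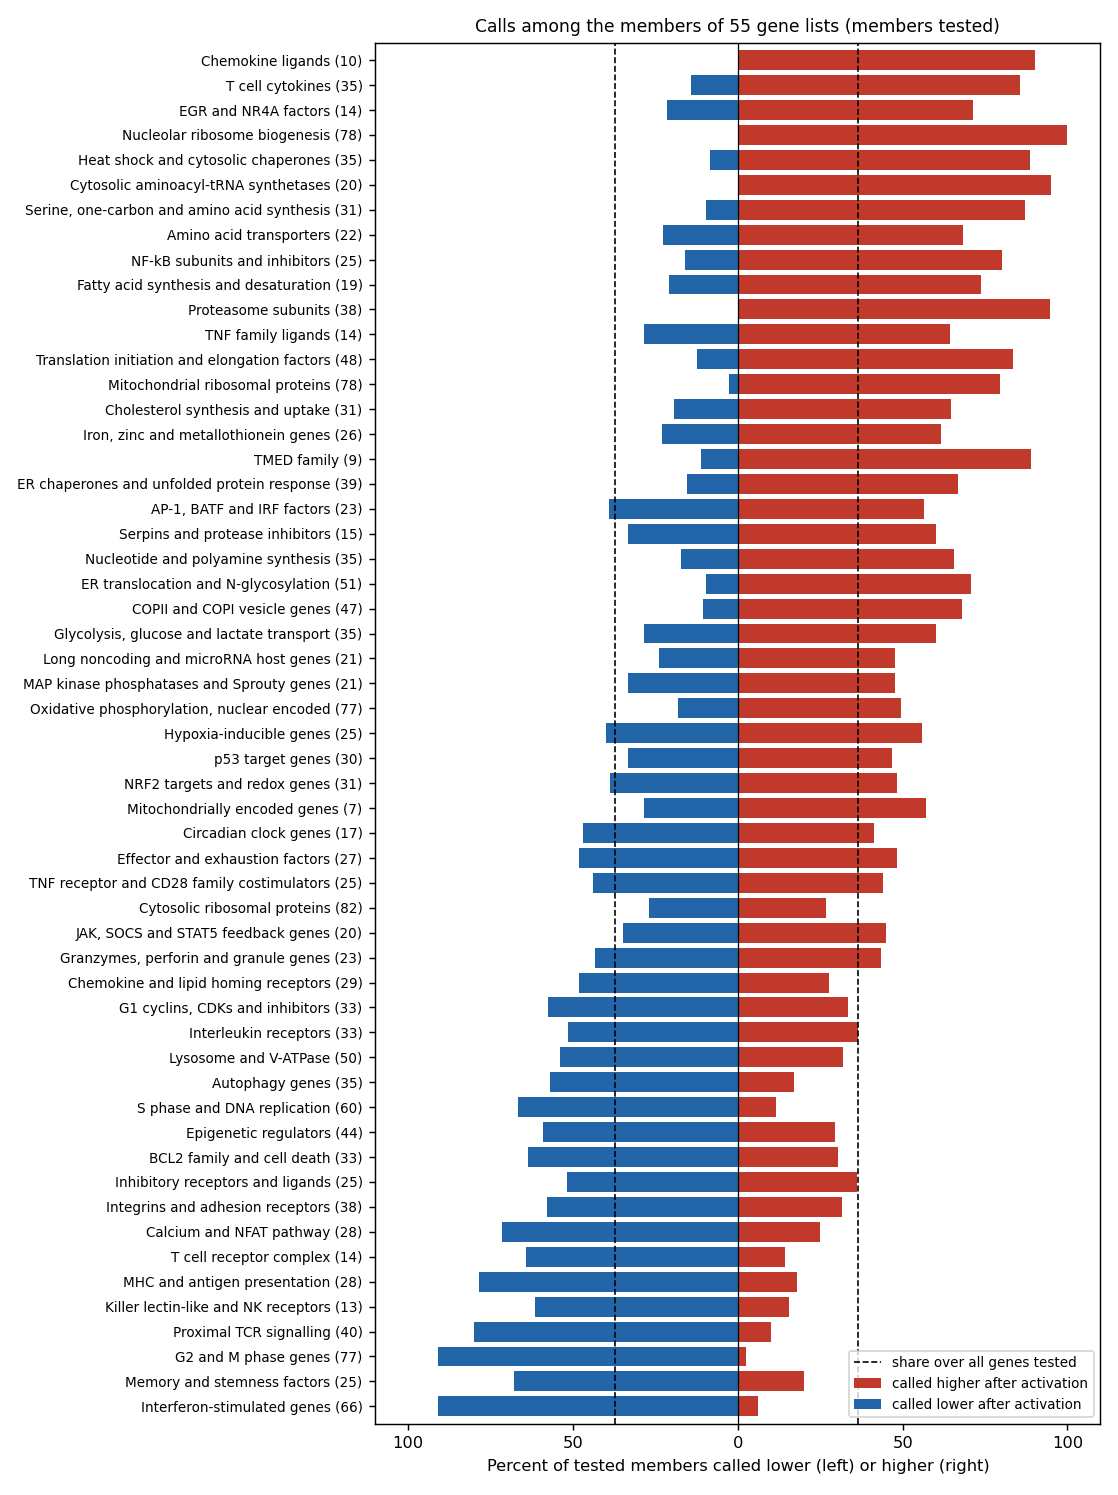
Percent of tested members called higher (red, right) or lower (blue, left) in each of 55 gene lists, with the number tested in brackets and dashed lines at the shares over all 13167 genes (36.4% and 37.4%). Lists are sorted by their median log2 fold change, from chemokine ligands at the top to interferon-stimulated genes at the bottom.

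Costimulatory receptors went in both directions, with 11 of 25 higher and 11 lower (44% higher, 44% lower). Tnfrsf4, for OX40, rose from 13.9 and 15.7 to 368 and 369 CPM (4.63 ± 0.0688), and Tnfrsf18, for GITR, from 175 and 173 to 384 and 409 CPM (1.19 ± 0.0457). The genes sit within 15.1 kb on chromosome 4 (156013843 to 156028895). Tnfrsf9, for CD137, was high at rest and rose from 936 and 935 to 2404 and 2516 CPM (1.39 ± 0.0385). Tnfrsf8, for CD30, rose from 94.3 and 92.5 to 724 and 723 CPM (2.95 ± 0.0471). Cd28 fell by 0.73 and Cd226, for the receptor DNAM-1, by 1.47 on the log2 scale. Icos was not called, at 243 and 231 and then 239 and 232 CPM. Cd69, commonly used as an early activation marker, fell from 185 and 167 to 115 and 109 CPM (−0.65 ± 0.0538) at this time. Its log2 fold change was −0.15 with AGN192403 and 0.17 with guides against Tmed10. Slamf6, found on stem-like cells, fell from 17.8 and 16.6 to 1.42 and 1.09 CPM (−3.76 ± 0.192).

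Inhibitory receptors and ligands showed 9 rises and 13 falls among 25 (36% higher, 52% lower). Of the 22 over the filter level in both states, 8 rose and 11 fell. Pdcd1, for PD-1, rose from 21.6 and 21.9 to 41.99 and 45.7 CPM (1.01 ± 0.0883, adjusted p = 1.58e-10). Tigit went from 22.4 and 18.8 to 146 and 156 CPM (2.88 ± 0.0735), Lag3 from 130.3 and 134 to 355 and 376 CPM (1.47 ± 0.0505), and Ctla4 from 187 and 192 to 471 and 485 CPM (1.33 ± 0.0437). Havcr2, for TIM-3, rose by 0.79. The genes of both PD-1 ligands rose too, Cd274 from 68.9 and 67.7 to 142 and 152 CPM (1.11 ± 0.0519) and Pdcd1lg2 from 15.5 and 11.3 to 34.7 and 30.5 CPM (1.31 ± 0.1103).

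The largest rise in that list was of Cd200, for a ligand that quiets myeloid cells, which went from 0.3996 and 0.454 to 86.1 and 95.1 CPM (7.68 ± 0.151). The genes of its receptor family on these cells, Cd200r1 and Cd200r4, fell by 2.32 and 3.09. Cd160 fell from 145 and 150.5 to 35.6 and 34.5 CPM (−2.08 ± 0.0594) and Vsir, for VISTA, from 521 and 523 to 126 and 134 CPM (−2.003 ± 0.0437). Fgl2, for a secreted inhibitor, fell from 724 and 761 to 60.9 and 59.8 CPM (−3.62 ± 0.0506). The ectoenzyme genes of the adenosine pathway also fell. Entpd1, for CD39, went from 114 and 113 to 65.6 and 71.5 CPM (−0.73 ± 0.05098) and Nt5e, for CD73, from 71.7 and 72.9 to 5.25 and 4.53 CPM (−3.88 ± 0.102). Adora2a, for the adenosine receptor, rose from 8.99 and 8.701 to 31.8 and 34.2 CPM (1.90 ± 0.0992).

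Interleukin receptors had 12 of 33 higher and 17 lower (36.4% higher, 51.5% lower), the share of rises being that over all genes. Of the 28 over the filter level in both states, 9 rose and 16 fell. Il2ra, for the chain that gives the IL-2 receptor its high affinity, rose from 1299 and 1312 to 5588 and 5743 CPM (2.12 ± 0.0333). Its partners moved little. Il2rb stood at 1693 and 1712 and then 1904 and 1938 CPM (0.17 ± 0.0347), and Il2rg fell from 379.6 and 379.97 to 287 and 303 CPM (−0.37 ± 0.0469). Stat5a, for a factor that IL-2 activates, rose from 40.9 and 43.5 to 374 and 382 CPM (3.16 ± 0.0523), whereas Stat5b rose by 0.73. Both chains of the interferon gamma receptor fell, Ifngr1 from 603 and 602 to 126 and 138 CPM (−2.19 ± 0.0442) and Ifngr2 from 27.7 and 29.4 to 7.33 and 9.23 CPM (−1.79 ± 0.111). The genes of the type I interferon receptor, Ifnar1 and Ifnar2, fell by 1.20 and 1.69, and those of the IL-18 receptor, Il18r1 and Il18rap, by 1.75 and 2.36 on the log2 scale. Tgfbr1 and Tgfbr2, for the TGF-beta receptor, fell by 1.67 and 1.42.

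Feedback of the IL-2 and IL-7 pathways was split, with 9 of 20 genes of the JAK, SOCS and STAT5 list higher and 7 lower (45% higher, 35% lower). Socs3, for a feedback inhibitor of cytokine receptors, rose from 31.97 and 39.7 to 74.9 and 66.7 CPM (0.97 ± 0.0758), while Socs2 and Socs1 fell by 0.999 and 0.50. Cish, a STAT5 target, was not called, at 477 and 466 and then 457 and 470.5 CPM. Jak1 fell from 861 and 877 to 397 and 397 CPM (−1.13 ± 0.0394).

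Homing receptors were lower in 14 of 29 cases and higher in 8 (27.6% higher, 48.3% lower). Of the 24 over the filter level in both states, 13 fell and 5 rose. Ccr2 fell from 739 and 755 to 106 and 104 CPM (−2.83 ± 0.0456) and Cxcr3, which steers effector cells to inflamed tissue, from 44.1 and 46.2 to 1.33 and 1.59 CPM (−4.94 ± 0.1399). Cxcr6 fell from 367 and 382 to 89.8 and 86.5 CPM (−2.09 ± 0.0472). Ccr4 rose from 49.95 and 53.6 to 219.9 and 222 CPM (2.09 ± 0.0512) and the acid sensor gene Gpr65 from 58.7 and 60.1 to 281 and 297 CPM (2.28 ± 0.0571).

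Adhesion genes fell in 22 of 38 cases and rose in 12 (31.6% higher, 57.9% lower), and 6 of the falls and 2 of the rises were of genes that passed the filter through 1 state alone. Itgae and Itgb7 encode the 2 chains of the integrin that holds T cells in epithelia. Itgae fell from 66.3 and 65.6 to 4.42 and 4.78 CPM (−3.84 ± 0.0911) and Itgb7 from 591 and 609 to 71.9 and 76.02 CPM (−3.02 ± 0.0565). Cdh1, for E-cadherin, the ligand of that integrin, fell from 60.5 and 63.3 to 1.42 and 1.93 CPM (−5.20 ± 0.121). Itgal, for the LFA-1 alpha chain, fell by 0.74. Crtam, for an adhesion receptor of activated cytotoxic cells, rose from 9.89 and 9.23 to 222 and 221 CPM (4.54 ± 0.0696), and Selp, for P-selectin, from 0.699 and 0.378 to 27.8 and 29.5 CPM (5.76 ± 0.220).

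The killing machinery changed unevenly, with 10 of 23 granule genes higher and 10 lower (43.5% higher, 43.5% lower). Gzmb stood at 9438 and 9819 CPM at rest and 19550.0 and 20457 CPM after activation (1.05 ± 0.0348, adjusted p = 4.32e-19). Prf1, for the pore protein perforin, rose from 286 and 289 to 927 and 952 CPM (1.71 ± 0.0432). All 6 tested genes of the granzyme cluster on chromosome 14 (56117626 to 56262260) rose, from 0.29 for Gzmg to 1.62 for Gzmc. Gzmc to Gzmg are closely similar copies, so the split of reads among them is uncertain. Gzma, on another chromosome, fell from 1889.9 and 1934 to 1622 and 1667 CPM (−0.22 ± 0.0395) and Gzmk from 8.39 and 6.51 to 0.916 and 0.839 CPM (−3.05 ± 0.258). Of genes for granule release in the list, Lyst (−2.005 ± 0.0932), Sytl2 (−2.49 ± 0.0567) and Unc13d (−0.51 ± 0.0437) fell, whereas Rab27a (0.36 ± 0.04503) and Stx11 (1.92 ± 0.0732) rose.

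Protease inhibitors were higher in 9 of 15 cases and lower in 5 (60% higher, 33.3% lower). Of the 13 over the filter level in both states, 8 rose and 4 fell. Serpinb9, for the granzyme B inhibitor, went from 207 and 211 to 2469.9 and 2394 CPM (3.54 ± 0.0404), beside 1.05 ± 0.0348 for Gzmb. Serpinb6b went from 126 and 132 to 1236 and 1249.6 CPM (3.27 ± 0.0454) and Serpinb9b, a close paralog of Serpinb9, from 3.297 and 2.95 to 215 and 207 CPM (6.08 ± 0.0905). These 3 genes lie side by side on chromosome 13, and their neighbour Serpinb1a fell from 31.6 and 32.8 to 19.9 and 22.7 CPM (−0.60 ± 0.0853). Serpina3g, for another protease inhibitor of T cells, fell from 187 and 191 to 43.2 and 40.8 CPM (−2.17 ± 0.0563).

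Killer lectin-like and NK receptor genes were lower in 8 of 13 cases and higher in 2 (15.4% higher, 61.5% lower). Of the 8 over the filter level in both states, 6 fell and 0 rose. Klrd1, for CD94, fell from 266 and 274 to 63.1 and 59.5 CPM (−2.14 ± 0.0469) and Klrk1, for NKG2D, from 116 and 122 to 74.1 and 74.7 CPM (−0.68 ± 0.0542). Its signalling adaptor gene Hcst fell by 1.71 on the log2 scale. The sequences of this family are alike, and reads may be split among members.

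Interferon-stimulated genes were the list with the lowest median, while Ifng itself rose. Of 66 tested out of 70, 60 fell, 48 of them beyond 2-fold, and 4 rose (6.06% higher, 90.9% lower). The filter kept 8 of the falls through the resting libraries alone, and of 56 genes over its level in both states 52 fell and 3 rose. The median log2 fold change was −2.22. The list summed to 8292 CPM as the mean at rest and 2494 CPM after activation. Gbp2, for a guanylate-binding protein of cell-intrinsic defence, went from 376 and 391 to 45.4 and 46.99 CPM (−3.05 ± 0.0506). Iigp1, for an immunity-related GTPase, fell from 192 and 202 to 10.1 and 12.5 CPM (−4.13 ± 0.0736). Isg15 and Mx2 were low, with Isg15 at 9.09 and 10.6 and then 6.83 and 7.803 CPM (−0.44 ± 0.141) and Mx2 not called. The rises were Bst2, Gbp5, Ifi35 and Oasl1, of which Bst2 went from 72.2 and 71.3 to 109.7 and 113 CPM (0.64 ± 0.0543). The rise of Ifi35 (0.18 ± 0.0733) was not called with library totals (adjusted p = 0.0603), with DESeq2 (0.0728) or in 3 of the 4 fits without 1 control library.

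The deepest fall in the list was that of Ifit1bl1, of the IFIT family, from 17.2 and 17.5 to 0.0833 and 0.0839 CPM, a ratio of 207.5 (57.1 to 1719). Several other deep falls were of genes in 1 stretch, while those of Iigp1 and Rtp4 (−3.73 ± 0.222) were not. On chromosome 1 (173468485 to 173942672) the DNA sensors of the Ifi200 family lie within 474.2 kb, and all 9 tested genes there fell. The ends of that stretch are Ifi206 and Ifi203, members of the list that fell, so the count is a description. Ifi204 had the smallest fall there (−2.28 ± 0.154). Ifi203 went from 135 and 130.1 to 2.92 and 3.02 CPM (−5.48 ± 0.0953), Ifi208 from 80.7 and 81.1 to 1.17 and 1.01 CPM (−6.21 ± 0.1397) and Ifi206 from 135 and 138 to 4.75 and 5.12 CPM (−4.79 ± 0.0921). Reads of these related genes may be shared. Of the Gbp genes, all 5 tested on chromosome 5 (105014150 to 105293698) fell. On chromosome 3 (142493978 to 142638008) Gbp2, Gbp3 and Gbp7 fell, and Gbp5 rose from 65.6 and 68.9 to 91.98 and 96.4 CPM (0.48 ± 0.0514).

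Antigen presentation genes fell in 22 of 28 cases and rose in 5 (17.9% higher, 78.6% lower). The class I genes H2-K1 and H2-D1 fell by 0.56 and 0.62, and B2m, for their light chain, from 2279.9 and 2419 to 1482 and 1549 CPM (−0.63 ± 0.0429). Nlrc5, for the master factor of class I genes, fell from 774 and 692 to 282 and 260.4 CPM (−1.43 ± 0.0563). Tap1, for a chain of the peptide transporter, fell by 1.16. The interferon-inducible proteasome genes Psmb8, Psmb9 and Psmb10 fell by 0.45, 1.18 and 1.19, while constitutive proteasome genes rose as described below. Cd74, for the class II invariant chain, rose from 6.09 and 6.81 to 43.8 and 47.7 CPM (2.81 ± 0.113). Cd74 is itself part of the myeloid marker sum, so the rise of that sum is not a separate observation. Among the other myeloid markers, Cst3 rose from 41.5 and 43.5 to 51.8 and 54.4 CPM. Cd68, Itgax and Itgam fell, and Lyz2 and Csf1r did not pass the filter.

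**Figure D4:**
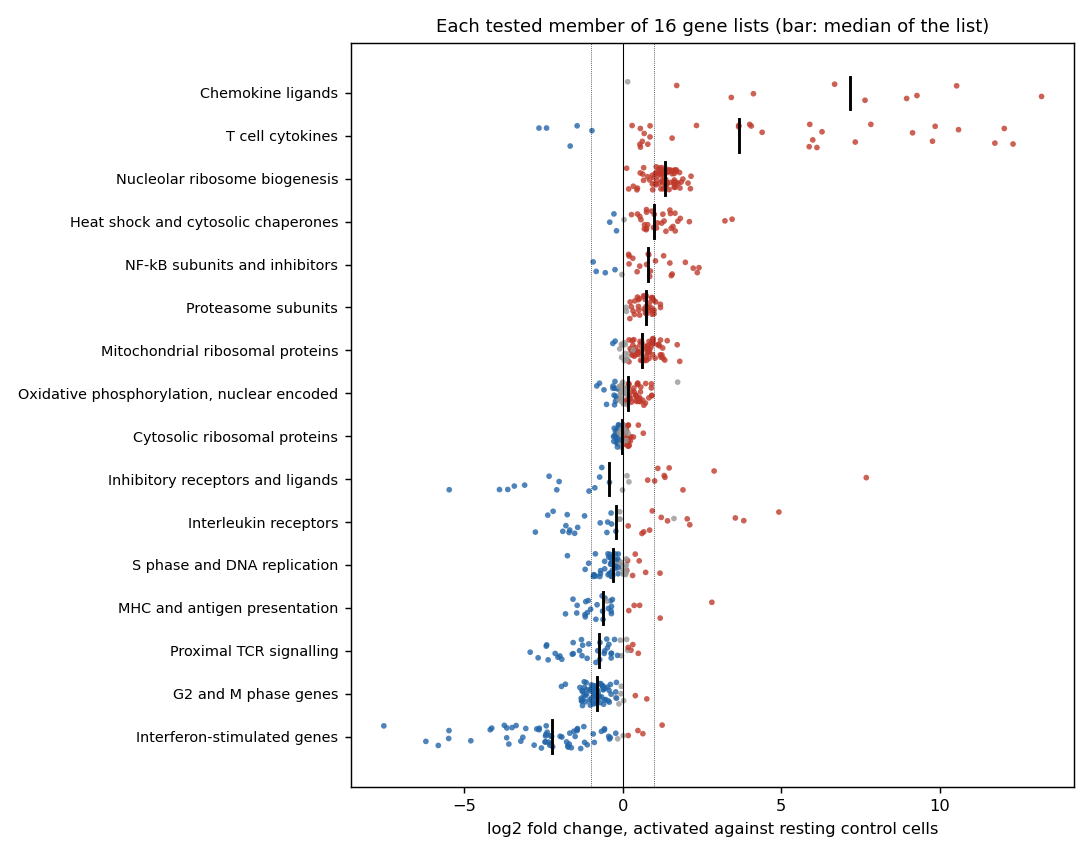
Log2 fold change of each tested member of 16 lists, 1 point per gene, red if called higher, blue if called lower and grey if not called, with a black bar at the median of the list and dotted lines at a 2-fold change. Nucleolar genes sit to the right of 0 as a tight group around 1.34, and interferon-stimulated genes spread to the left around −2.22.

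All 78 tested genes of nucleolar ribosome biogenesis were called higher, 57 of them beyond 2-fold, with a median of 1.34. Ncl, for nucleolin, rose from 1206 and 1214 to 2979.5 and 3087 CPM (1.33 ± 0.0364) and Nop16, for a factor of the large subunit, from 28.4 and 26.6 to 117 and 127 CPM (2.16 ± 0.0665). Polr1b, for a core subunit of RNA polymerase I, rose by 1.81, and the smallest change in the list was that of Utp3, 0.13 ± 0.0552. Of 82 genes tested for the ribosomal proteins themselves, 22 rose, 22 fell, none went beyond 2-fold (26.8% higher, 26.8% lower), and the median was −0.02. Rps27l, a p53-inducible variant, rose most, from 78.2 and 80.96 to 118 and 132 CPM (0.65 ± 0.0623).

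Initiation and elongation factors of translation were higher in 40 of 48 cases and lower in 6 (83.3% higher, 12.5% lower). Cytosolic tRNA synthetases were higher in 19 of 20 cases (95% higher, 0% lower), with a median of 0.91 and Vars not called. Hars rose from 98.2 and 98.7 to 239 and 249 CPM (1.31 ± 0.0527) and Iars from 188 and 197 to 401 and 413 CPM (1.08 ± 0.0432). Eif4e, for the cap-binding factor, rose from 51.4 and 53.1 to 138 and 139.5 CPM (1.41 ± 0.0523). Pdcd4, for an inhibitor of the helicase beside it, fell from 211 and 219 to 45.5 and 48.1 CPM (−2.20 ± 0.0583). The abundant elongation factor genes Eef1a1 and Eef2 fell by 0.26 and 0.20.

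Of 22 amino acid transporter genes, 15 rose and 5 fell (68.2% higher, 22.7% lower), and 3 of the rises were of genes that passed the filter through the activated libraries alone. Slc7a5, for the leucine carrier LAT1, rose from 259 and 271 to 642 and 656 CPM (1.29 ± 0.0396). Slc1a2, for a glutamate transporter best known from astrocytes, had 0 resting counts and 13.5 and 12.3 CPM after activation, at least 100.0-fold. Serine, one-carbon and amino acid synthesis genes were higher in 27 of 31 cases and lower in 3 (87.1% higher, 9.68% lower). Cth, for the enzyme that makes cysteine from cystathionine, went from 0.3996 and 0.605 to 41.1 and 39.9 CPM (6.26 ± 0.187), and Bcat1, for the cytosolic branched-chain transaminase, from 25.5 and 27.1 to 185 and 189 CPM (2.82 ± 0.06605). The stress-linked ATF4 targets in that list, Ddit4 and Trib3, fell by 0.25 and 0.54.

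Nucleotide and polyamine synthesis genes were higher in 23 of 35 cases and lower in 6 (65.7% higher, 17.1% lower). Srm, for spermidine synthase, rose from 57.2 and 56.97 to 309 and 336 CPM (2.50 ± 0.0546) and Odc1, for the enzyme before it, by 1.31. Cad, for the first steps of pyrimidine synthesis, rose from 241 and 252 to 640.4 and 638 CPM (1.37 ± 0.0397). Genes tied to DNA replication in the same list fell, with Rrm2, for ribonucleotide reductase, at −0.57 ± 0.0421 and Tk1, for thymidine kinase, at −0.85 ± 0.0725.

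Cholesterol genes were higher in 20 of 31 cases and lower in 6 (64.5% higher, 19.4% lower), with a median of 0.55. Idi1, for an enzyme of isoprenoid synthesis, rose from 15.2 and 13.1 to 35.7 and 31.6 CPM (1.26 ± 0.0939). Abcg1, for a sterol exporter, and Mylip, for a ligase that degrades the LDL receptor, fell by 3.28 and 3.19 on the log2 scale. Among 19 fatty acid genes, 14 rose and 4 fell (73.7% higher, 21.1% lower), with a median of 0.79. Of the 16 over the filter level in both states, 12 rose and 3 fell. Scd1, for the desaturase of stearate, rose from 54.6 and 55.8 to 278 and 286 CPM (2.35 ± 0.0473), and Fasn, for fatty acid synthase, by 1.03.

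Glycolysis genes rose in 21 of 35 cases and fell in 10 (60% higher, 28.6% lower). Hk2, for the inducible hexokinase, rose from 283 and 287 to 741 and 773 CPM (1.41 ± 0.0398), while Hk1 fell by 0.11. Slc2a1, for GLUT1, rose from 346 and 351 to 438 and 453 CPM (0.35 ± 0.0411), and Slc2a6, for a lysosomal hexose transporter, from 7.09 and 7.49 to 67.7 and 70.5 CPM (3.24 ± 0.0962). Pdk1, for a pyruvate dehydrogenase kinase, fell from 323 and 317 to 165 and 169 CPM (−0.94 ± 0.0407). Txnip, for an inhibitor of glucose uptake, fell from 636 and 642 to 127 and 129 CPM (−2.32 ± 0.0427). In the hypoxia list 14 of 25 rose and 10 fell (56% higher, 40% lower), with a median of 0.15.

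Nuclear-encoded oxidative phosphorylation genes were higher in 38 of 77 cases and lower in 14 (49.4% higher, 18.2% lower), with 25 not called and none beyond 2-fold. Mitochondrial ribosomal protein genes were higher in 62 of 78 and lower in 2 (79.5% higher, 2.56% lower), with a median of 0.60, and Mrps6 rose from 16.5 and 17.02 to 54.4 and 62.6 CPM (1.80 ± 0.1004). Of 7 tested transcripts of the mitochondrial genome, 4 rose and 2 fell (57.1% higher, 28.6% lower), with a median of 0.11. The redox list was split, with 15 of 31 higher and 12 lower (48.4% higher, 38.7% lower). Glrx, for glutaredoxin, fell from 243 and 248 to 41.4 and 43.9 CPM (−2.53 ± 0.05696), and Txnrd1, for thioredoxin reductase, rose by 1.01.

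Heat shock and cytosolic chaperone genes were higher in 31 of 35 cases and lower in 3 (88.6% higher, 8.57% lower), with a median of 1.00. Hsp90ab1 rose from 3287 and 3378 to 5499 and 5745 CPM (0.75 ± 0.0341), the mitochondrial chaperone gene Hspd1 from 185 and 191 to 788 and 831 CPM (2.10 ± 0.04598), and the chaperonin gene Cct6a by 1.66. Proteasome subunits were higher in 36 of 38 cases (94.7% higher, 0% lower), with none lower and a median of 0.72. Psmd7 rose from 79.7 and 82.5 to 187 and 185 CPM (1.19 ± 0.0491). Lysosome genes leaned the other way, with 27 of 50 lower and 16 higher (32% higher, 54% lower). Psap, for the saposin precursor, fell from 452 and 464 to 141 and 146 CPM (−1.67 ± 0.0414). Autophagy genes fell in 20 of 35 cases and rose in 6 (17.1% higher, 57.1% lower).

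ER chaperone and unfolded protein response genes were higher in 26 of 39 cases and lower in 6 (66.7% higher, 15.4% lower). Hspa5, for BiP, rose from 688 and 698 to 1879 and 1848 CPM (1.43 ± 0.0354) and Hyou1, for its exchange factor, from 186 and 189.6 to 598 and 584 CPM (1.65 ± 0.0454). Eif2ak3, for the stress sensor PERK, fell from 324 and 325 to 142 and 133 CPM (−1.23 ± 0.0424), and Ddit3, for the stress factor CHOP, from 20.5 and 16.8 to 10.6 and 10.4 CPM (−0.81 ± 0.113). ER translocation and N-glycosylation genes were higher in 36 of 51 cases (70.6% higher, 9.8% lower), and COPII and COPI vesicle genes in 32 of 47 (68.1% higher, 10.6% lower). Lman1, for a cargo receptor between ER and Golgi, rose from 70.9 and 73.8 to 214 and 214 CPM (1.56 ± 0.0457).

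The TMED family, cargo receptors of the same route, had 8 of 9 tested members higher and 1 lower (88.9% higher, 11.1% lower), none beyond 2-fold. Tmed10 stood at 116 and 117 CPM at rest and 128 and 125 CPM after activation, a log2 fold change of 0.12 ± 0.0478. Its adjusted p was 0.0282 in edgeR and 0.0829 in DESeq2. The rise of Tmed1 (0.66 ± 0.202) was not called with DESeq2 (adjusted p = 0.052) or without activated library 1 (adjusted p = 0.167 in edgeR). Tmed2, Tmed9 and Tmed3 rose by 0.52, 0.48 and 0.55. Tmed8 fell from 65.8 and 68.1 to 49.7 and 45.4 CPM (−0.50 ± 0.0649).

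In the G2 and M phase list 70 of 77 fell, 18 of them beyond 2-fold, and 2 rose (2.6% higher, 90.9% lower), with a median of −0.82. Ccnb2 went from 112 and 118 to 29.2 and 31.1 CPM (−1.93 ± 0.0641), Mki67, for the proliferation marker Ki-67, from 935 and 879 to 479 and 444 CPM (−0.97 ± 0.0557), and Top2a, for topoisomerase II alpha, from 1229.6 and 1247 to 629 and 622 CPM (−0.99 ± 0.0353). Pttg1, for securin, was an exception, at 0.76 ± 0.102. S phase genes fell in 40 of 60 cases and rose in 7 (11.7% higher, 66.7% lower), with a median of −0.32. Pcna fell by 0.14 and Mcm5, for a replication helicase subunit, by 0.38, while Orc1, for the origin recognition complex, rose from 24.8 and 24.7 to 55.6 and 56.6 CPM (1.18 ± 0.0727).

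Regulators of G1 pointed both ways. Ccnd2, for cyclin D2, rose from 1084 and 1095 to 2709.9 and 2765 CPM (1.33 ± 0.0332), and Ccnd3 fell by 0.74. Cdkn1b, for the inhibitor p27, fell from 177 and 169 to 38.7 and 36.5 CPM (−2.20 ± 0.0558), whereas Cdkn1a, for p21, rose from 492 and 502 to 969 and 1013 CPM (0.99 ± 0.0386). Mxd4 and Mxd3, for antagonists of MYC, fell by 2.23 and 3.07 on the log2 scale. Of 30 p53 target genes, 14 rose and 10 fell (46.7% higher, 33.3% lower). Trp53inp1, for a p53-induced nuclear protein, fell from 485 and 493 to 85.5 and 89.03 CPM (−2.49 ± 0.0449).

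Genes of cell death fell in 21 of 33 cases and rose in 10 (30.3% higher, 63.6% lower). Bcl2l11, for the death protein BIM, went from 209.6 and 209.7 to 26.99 and 26.2 CPM (−2.98 ± 0.05195), and Bbc3, for PUMA, from 28.9 and 36.1 to 9.41 and 9.57 CPM (−1.79 ± 0.116). Among survival genes, Bcl2 fell from 901 and 909.7 to 369 and 369 CPM (−1.30 ± 0.0365) and Mcl1 by 0.51, while Bcl2l1, for BCL-XL, rose from 102 and 111 to 278 and 303 CPM (1.44 ± 0.0492). The near-identical Bcl2a1b and Bcl2a1d rose by 1.86 and 2.54.

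Chromatin and clock genes went both ways. Of 44 epigenetic regulators, 13 rose and 26 fell (29.5% higher, 59.1% lower), with Kdm6b, for an eraser of a silencing histone mark, up from 56.5 and 51.7 to 117 and 120.5 CPM (1.14 ± 0.0654). Of 17 circadian clock genes, 7 rose and 8 fell (41.2% higher, 47.1% lower). Among 26 iron, zinc and metallothionein genes, 16 rose and 6 fell (61.5% higher, 23.1% lower). Tfrc, for the transferrin receptor that brings in iron, rose from 711 and 727 to 1545 and 1597 CPM (1.13 ± 0.0352).

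Of 21 long noncoding and microRNA host genes, 10 rose and 5 fell (47.6% higher, 23.8% lower). Mir155hg, the host of the T cell microRNA miR-155, rose from 2.797 and 2.12 to 52.7 and 48.8 CPM (4.39 ± 0.157). Snhg15 and Snhg12, hosts of small nucleolar RNAs, rose by 1.46 and 1.26. Neat1, the scaffold RNA of paraspeckles, fell from 415 and 325 to 199.8 and 187 CPM (−0.93 ± 0.09603). Malat1 fell by 0.66 on the log2 scale. Its groups overlapped, with library 1 the higher in each. By annotation class, 85 of 180 lincRNA genes fell and 25 rose, and 79 of 173 antisense genes fell and 21 rose. Of 147 processed transcripts, 57 fell and 28 rose. Among 636 processed pseudogenes, 181 rose and 55 fell, both smaller shares than over all genes. Over all 13167 genes tested, 4927 fell (37.4%) and 4787 rose (36.4%). The kit kept strand, but the strand setting of the counting was not given in the sources used here, so reads of an antisense gene and its partner may not be told apart.

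Some genes stayed within narrow limits. For 1030 genes (7.82%) the 95% interval of the log2 fold change lay wholly within −0.25 to 0.25, and 175 of them were nonetheless called. The most abundant were Actb, Pabpc1, Lcp1, Rplp0, Rpl4, Rack1, Pkm, Il2rb and the mitochondrial mt-Nd5 and mt-Cytb. Actb, for beta-actin, stood at 7495 and 7767 and 6553 and 6926 CPM (−0.18 ± 0.0334) and Rack1, a ribosome-bound scaffold gene, at 2146 and 2188 and 2244 and 2304 CPM (0.07 ± 0.0365). Gapdh, often used as a reference gene, rose from 981 and 1010.5 to 1179 and 1215 CPM (0.27 ± 0.0398).

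The same activation was also measured in separate libraries of AGN192403-treated and Tmed10 knockout cells, which share no library with the comparison above. Of the called genes, 7827 were called the same way in all 3 conditions, which is 80.6% of the calls and 59.4% of all genes tested. Among genes beyond 2-fold, 2410 or 97.4% were. Ifng rose by 9.14, 8.75 and 9.20 in vehicle, AGN192403 and knockout cells, Cd200 by 7.68, 6.40 and 7.03, and Serpinb9 by 3.54, 3.01 and 3.35. The fall of Ifi208 was −6.21, −5.48 and −5.56, and that of Tcf7 −2.81, −1.88 and −2.25. Genes called in the opposite direction numbered 88 with AGN192403 and 27 in the knockout.

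The size of the response differed for some genes. A test of the difference in log2 fold change called 653 genes (4.96%) for the knockout and 2592 genes (19.7%) for AGN192403, with the control libraries shared by both tests. With DESeq2 the counts were 312 and 1491, and with replicate number added to the edgeR fit they were 834 and 2918. Medians of the leading lists stayed on the same side of 0. Chemokine ligands had medians of 7.16, 6.41 and 7.15 in vehicle, AGN192403 and knockout cells, and T cell cytokines of 3.66, 3.93 and 3.86. Both lists include the members whose rise the selection favoured.

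**Figure D5:**
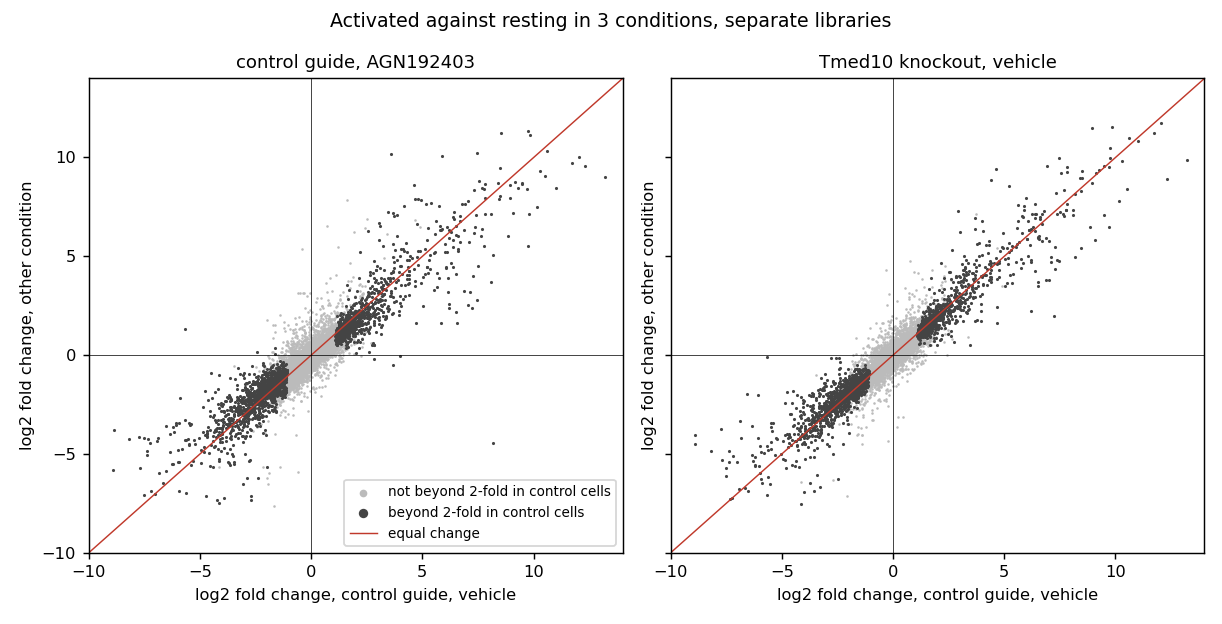
Log2 fold change of each gene after activation in AGN192403-treated control cells (left) and in Tmed10 knockout cells (right), against that in control vehicle cells on the x axis, with genes beyond 2-fold in control vehicle cells dark and a red line at equal change. Most dark points lie in the lower left and upper right parts of the plots, the same side of 0 in both conditions.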

How the data were processed

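RNA of 12 libraries in 6 groups of 2 was sequenced as 65-base single reads after poly(A) selection. The authors deposited raw counts of reads per Ensembl gene, made with STAR 2.6.0c and HTSeq on GRCm38 per the labels. The strand setting was not given in the sources used here. The table gave 46603 identifiers, and GENCODE vM21 named 46091 of them. Total counts were 10055726 to 13274398 in the 4 control libraries compared, and all tests rest on 2 libraries per group.

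Counts of all 12 libraries were fitted in edgeR 4.0.16 (R 4.3.3, limma 3.58.1) with 1 mean per group, after its expression filter (10 counts at the median library size, or 0.82 CPM, in 2 libraries) and TMM scaling, by the quasi-likelihood test with Benjamini-Hochberg adjustment (threshold 0.05, 6 residual degrees of freedom). CPM are counts scaled to a common library size with TMM factors. Beyond 2-fold means past a test against a log2 change of 1. Genes with 0 counts in a group are given as bounds from 3 counts over the group, and intervals cover counting error only. With 2 against 2 libraries, no exact permutation test can pass 0.05. The fit recovered planted changes when tested on simulated data. Only a small part of the genes was changed there, all well counted, with the same spread for every gene. Low counts and a shift of most genes were not covered. Alternatives were other filters and scalings, library totals, a replicate block, only the control libraries, DESeq2 1.42.0 and leaving out each library.

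The gene lists, the members and the motifs were chosen with earlier results of these data known. So were the genes that bound the chromosome stretches, and counts of rises and falls within those stretches are descriptions. Genes were named by rule: the study's main targets, the 20 largest rises and falls at 10 CPM or more, the 15 largest gains and losses in CPM, up to 4 rises and 4 falls per list at 5 CPM or more, the 10 most abundant stable genes, and members of lists of 15 or fewer. Batf, Bcl2, Ccl25, Ccl4, Ccl5, Ccnd3, Cd160, Cd200r1, Cd200r4, Cd274, Cd69, Cd70, Cdkn1a, Cish, Csf2, Cst3, Dgka, Fasn, Fosl2, Furin, Gapdh, Gbp2, Gbp3, Gbp7, Gzmg, H2-D1, H2-K1, Havcr2, Hk1, Icos, Ifnar1, Ifnar2, Iigp1, Il10, Il13, Il18r1, Il21, Il24, Il2rg, Il4, Il5, Il7r, Irf1, Isg15, Itgal, Itgam, Itgax, Jun, Junb, Lat, Lck, Lif, Lta, Malat1, Mcl1, Mcm5, Mki67, Mx2, Nfatc1, Nfatc2, Nfatc3, Oasl1, Odc1, Osm, Pcna, Pdcd1lg2, Polr1b, Prdm1, Prkcq, Psmb8, Psmb9, Rab27a, Rasgrp2, Rela, Rgs1, S1pr1, Sema7a, Slc2a1, Slc7a5, Slfn2, Socs1, St6gal1, St8sia1, Tagap, Tap1, Tbx21, Tgfbr1, Tgfbr2, Tnfrsf18, Top2a, Txnip, Unc13d, Utp3, Vars, Vsir and Zap70 were named after their values were seen. Reads of similar copies (granzymes, Klr, Gbp, Ifi200, Bcl2a1 and Serpinb9 genes) may be split uncertainly. Some genes are not reported here.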

Additional observations from a re-analysis of the deposited data

Results flagged for a closer look

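For 49 of the named genes, the activation response was tested for a difference between control vehicle cells and each of the other 2 conditions, in 98 tests with p-values adjusted over all 13167 genes in edgeR. For AGN192403 11 of 49 differences were called (22.4%, beside 19.7% over all genes), and for the knockout 9 of 49 (18.4%, beside 4.96%). Both sets of tests share the control libraries, and the 49 genes were in part named for the size of their response. Values below are differences in log2 fold change ± SE.

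With AGN192403, the rises of 4 of these genes were smaller than with vehicle. The difference was −1.024 ± 0.275 for Xcl1 (adjusted p = 0.00901), −0.830 ± 0.270 for Ccl3 (0.0309), −0.561 ± 0.065 for Ctla4 (7.99e-07) and −0.401 ± 0.049 for Gzmb (1.72e-06). Entpd1, which fell in control cells, fell further, by −0.255 ± 0.075 (0.0158). The rise was larger for Pdcd1 (0.447 ± 0.138, adjusted p = 0.0234), Tnf (0.386 ± 0.080, 0.0011) and Prf1 (0.311 ± 0.061, 0.000676). The falls of Ifi203 (0.951 ± 0.203), Nod1 (0.944 ± 0.309) and Ifi206 (0.758 ± 0.179) were shallower.

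In Tmed10 knockout cells, the rise was larger for Penk (1.682 ± 0.463, adjusted p = 0.036), Prf1 (0.540 ± 0.061, 3.65e-06), Pdcd1 (0.499 ± 0.137, 0.032) and Tnf (0.363 ± 0.081, 0.0069). The falls of Cdh1 (0.967 ± 0.230), Ifi206 (0.794 ± 0.171), Ifi203 (0.742 ± 0.198) and Cxcr6 (0.361 ± 0.066) were shallower. Tmed10, the gene targeted in these cells, had a log2 fold change of 0.119 in control and −0.147 in knockout cells, a difference of −0.266 ± 0.075 (0.037).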

How the results depend on the processing

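Between 8458 genes (filter of 5 CPM) and 9829 genes (no filter) were called over the alternatives, and no call reversed in direction in any of them. With DESeq2, 1650 genes were beyond 2-fold in place of 2475, and 926 of them were lower in place of 1408. Leaving out 1 control library at a time, which leaves a group with 1 library that is assumed to vary like the other groups, gave 9046 to 9224 genes called, 955 to 1028 beyond 2-fold higher and 1218 to 1329 lower, and 7507 to 7620 called the same way in 3 conditions. The count of genes whose response differed in the Tmed10 knockout was 653, against 312 with DESeq2 and 402 to 473 without 1 control library, with 402 reached without activated control library 1. For AGN192403 it was 2592, against 1491 with DESeq2 and 1999 to 2206 without 1 control library. Of 448 named genes, 18 changed call or direction in some alternative. Rpl4 changed sign, at −0.0005 with library totals, and ran from −0.0051 to 0.0626 when 1 library was left out, with −0.0004 without resting replicate 1 and −0.0051 without activated replicate 2. Tmed10 lost its call with library totals, with DESeq2 and in 3 of the fits without 1 library. Deviations of libraries with the same number correlated at −0.00507 to 0.239 between groups, and at 0.189 between the groups compared here, so the numbers were not taken as pairs. With a replicate block, 9825 genes were called, and the response differed for 834 genes in the knockout and for 2918 with AGN192403. The filter of 5 CPM gave 704 and 2718 such genes. Low counts limit precision, since the median SE of the log2 fold change was 0.593 under 1 CPM. The fit of only the 4 control libraries gives no value for the other conditions. The causes of these changes were not tested.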

Other observations

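Some abundant genes outside all of the gene lists also changed beyond 2-fold, and those named here were chosen after their values were seen. Tagap stood at 7.29 and 6.28 CPM at rest and 133 and 131 CPM after activation (4.29 ± 0.0801). Sema7a, for a membrane-anchored semaphorin, rose from 23.3 and 22.5 to 220.03 and 230.5 CPM (3.30 ± 0.0561), and Furin, for a protease that matures precursor proteins, from 151 and 142 to 586 and 591 CPM (2.01 ± 0.0431). Rasgrp2, for an activator of RAP1, fell from 234 and 214 to 14.2 and 13.7 CPM (−3.998 ± 0.0689). St8sia1 and St6gal1, for a pair of sialyltransferases, fell, St8sia1 from 159 and 155 to 15.5 and 16.4 CPM (−3.30 ± 0.0609) and St6gal1 from 108 and 112 to 15.7 and 14.9 CPM (−2.85 ± 0.0739).

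Rises from near silence among genes outside the secreted lists included Crabp2 and Stra6, which encode a carrier and a transporter of the retinoid pathway. Crabp2 had 0.1998 and 0 CPM at rest and 45.6 and 48.8 CPM after activation, a ratio of 548 with a 95% counting interval of 151 to 4527. Stra6 stood at 0.0999 and 0 and then 11.2 and 11.8 CPM, a ratio of 268 (47.7 to 10620). Cd83, for a surface protein of mature dendritic cells and activated lymphocytes, went from 0.1998 and 0 to 25.8 and 26.3 CPM, a ratio of 303 (83.5 to 2507). Among the deepest falls were Ret, for a receptor tyrosine kinase, from 18.2 and 15.96 to 0.0833 and 0.336 CPM (−6.27 ± 0.274), and Cd7, for a lymphocyte surface protein, from 34.5 and 36.4 to 0.583 and 0.503 CPM (−6.004 ± 0.182).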
